A study of Arabidopsis thaliana with 12 samples.

Results

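In seedlings that carried both the brm-1 and the ref6-1 mutation, 74 genes had at most 60% of their wild-type transcript level, although each mutation alone left them at 75% or more. They were picked from a table of 29420 loci, of which 20328 had a mean of at least 3 CPM (counts of a gene over the total of its library, scaled to 1e6) in the wild type (WT). A gene was taken if it was among those 20328, if its mean CPM in brm-1 and in ref6-1 was each at least 0.75 of the WT mean, if its mean in brm-1 ref6-1 was at most 0.6 of it, and if the highest brm-1 ref6-1 library lay below the lowest WT library. All 4 genotypes therefore took part in the choice, and the levels of the 74 genes given here describe the choice and are not tested. One of the 74, AT4G12432, had the same counts in every library as TPPF (AT4G12430), a trehalose phosphate phosphatase gene, and was not found in the TAIR10.1 annotation, so 73 genes are distinct. Of these, 72 encode proteins and 1, AT3G13277, is annotated as an RNA.

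The study compared 14-day-old Arabidopsis thaliana seedlings of the genotypes brm-1 ref6-1, brm-1, ref6-1 and WT, each with 3 libraries and all grown on half-strength MS medium at 22 °C with 16 h of light and 8 h of darkness. The mutants carry the alleles brm-1 and ref6-1 of BRM and REF6 in every cell, and each genotype stands on 1 allele per gene. The labels give 3 biological replicates per genotype and also speak of RNA of 3 replicates being pooled, so the spread between libraries may be technical. Whole seedlings were used, and in such bulk samples fewer cells of a type and less RNA per cell cannot be told apart.

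BRM is the ATPase of a SWI/SNF complex, which uses ATP to move nucleosomes and so opens or closes regulatory DNA. REF6 is a Jumonji-type demethylase that removes methyl groups from lysine 27 of histone H3, the repressive mark placed by Polycomb proteins, and its zinc fingers bind DNA directly. Many of the genes described here belong to plant immunity. Receptors at the cell surface recognise microbial molecules, NBS-LRR proteins inside the cell recognise pathogen effectors, and both routes raise salicylate, a hormone made from isochorismate that switches on the pathogenesis-related (PR) genes.

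Library totals ran from 10119148 to 11860892 counts. BRM itself had 5.82, 3.46 and 40.9 CPM in the 3 brm-1 ref6-1 libraries and 3.65, 4.56 and 7.18 CPM in brm-1, against 257 to 274 CPM in ref6-1 and 271 to 277 CPM in WT. Replicate 3 of brm-1 ref6-1 thus held more BRM transcript than any other library with the brm-1 mutation. REF6 transcript had 79.1 to 80.6 CPM in brm-1 ref6-1, 89.7 to 90.9 CPM in brm-1, 78.7 to 82.9 CPM in ref6-1 and 81.7 to 94.1 CPM in WT. Since the ref6-1 allele may still give transcript, the REF6 levels are no check of its label.

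The 74 genes had a median of 54.3% of the WT level in brm-1 ref6-1, with a range of 18.9 to 59.9%. Their median was 86.8% in brm-1 (75.2 to 152%) and 81.6% in ref6-1 (75.3 to 155%). Over all 20328 loci the corresponding medians were 102%, 101% and 102%. Many of the 74 genes stood close to the upper bound of the rule: 35 had more than 55% of the WT level in the combined mutant, 19 had 50 to 55% and 20 had 50% or less. Their mean CPM was 1.57 to 53.6 in brm-1 ref6-1 (median 6.78) and 3.10 to 100 in WT (median 13.5), lower than the WT median of 38.8 CPM over the 20328 loci. The median transcript length was 1.75 kb for these genes and 1.74 kb for the 20328 loci.

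The 3 combined-mutant libraries were not alike. The median of the 74 genes was 47.4, 51.6 and 58.8% of the WT mean in brm-1 ref6-1 replicates 1, 2 and 3, and replicate 3, the library with 40.9 CPM of BRM, was the highest of the group for 51 genes and the lowest for 5. Whether its BRM level has a part in this was not tested. The medians were 95.8, 82.2 and 87.4% in brm-1, 76.5, 86.4 and 90.5% in ref6-1 and 99.6, 103 and 96.0% in WT. Replicate 1 of ref6-1 and replicate 2 of brm-1 were thus the lowest single-mutant libraries. Within genotypes, the median coefficient of variation over the 74 genes was 21.9% in brm-1 ref6-1, 13.1% in brm-1, 16.9% in ref6-1 and 12.5% in WT.

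**Figure D1:**
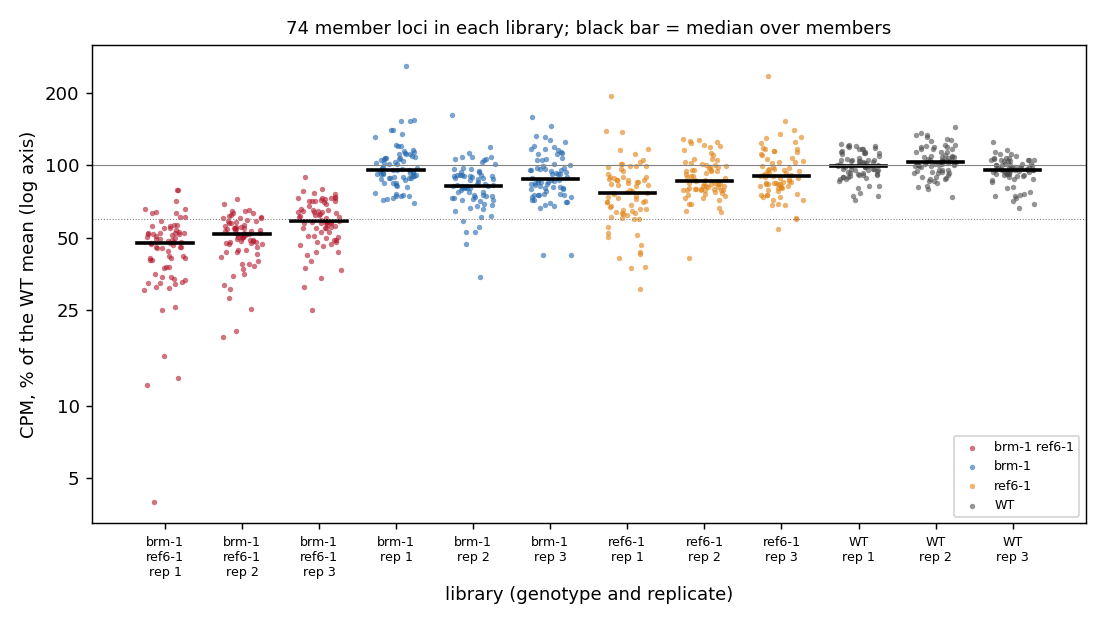
Level of each of the 74 loci in each of the 12 libraries, as CPM in percent of the WT mean on a log axis; points are loci, black bars the library medians and the dotted line the 60% bound of the rule. The 3 brm-1 ref6-1 medians lie between 47.4 and 58.8%, and the other 9 medians lie between 76.5 and 103%.

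Salicylate synthesis and its outputs supplied 4 of the 74 genes. PR2 (AT3G57260, listed as BGL2, chromosome 3, 21188397 to 21189967), which encodes a secreted glucanase that is a standard marker of salicylate signalling, was the lowest of all 74 in the combined mutant relative to WT. It had 5.04, 8.00 and 10.4 CPM in brm-1 ref6-1, 50.3, 14.2 and 31.0 CPM in brm-1 and 15.5, 39.0 and 49.0 CPM in ref6-1, against 50.1, 44.5 and 29.3 CPM in WT. The 3 combined-mutant libraries lay below all others, whereas both single mutants had 1 library near 15 CPM and 1 near 50 CPM. The means were 18.9% of WT in brm-1 ref6-1, 77.1% in brm-1 and 83.5% in ref6-1.

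PR1 (AT2G14610), the other standard output of the pathway, had 10.8, 10.6 and 37.5 CPM in brm-1 ref6-1, 47.8, 34.4 and 40.6 CPM in brm-1, 12.8, 41.5 and 47.6 CPM in ref6-1 and 44.2, 43.9 and 37.8 CPM in WT. Replicate 3 of the combined mutant lay just below the lowest WT library and above brm-1 replicate 2, and replicate 1 of ref6-1 lay beside the 2 low libraries of the combined mutant. The mean was 46.7% of WT in brm-1 ref6-1, and 25.4% without its replicate 3.

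ICS1 (AT1G74710, listed as EDS16), the isochorismate synthase that makes the salicylate precursor, had 38.4, 38.7 and 36.2 CPM in brm-1 ref6-1, 101, 70.0 and 86.3 CPM in brm-1 and 41.3, 51.6 and 61.2 CPM in ref6-1, against 58.8, 76.6 and 61.5 CPM in WT. The combined-mutant libraries lay within 3 CPM of each other and below all others, and the brm-1 mean was 131% of WT. EDS5 (AT4G39030), the transporter that carries isochorismate out of the chloroplast, had 28.3, 36.3 and 39.0 CPM in brm-1 ref6-1, 60.8, 39.6 and 51.8 CPM in brm-1, 43.5, 45.0 and 57.4 CPM in ref6-1 and 62.9, 58.9 and 57.6 CPM in WT. Its means were 57.7, 84.9 and 81.3% of WT in brm-1 ref6-1, brm-1 and ref6-1, and its locus overlaps another gene on the opposite strand. WRKY51 (AT5G64810), a transcription factor that links salicylate to the repression of jasmonate responses, had 6.01, 9.49 and 10.1 CPM in brm-1 ref6-1, 16.9, 11.9 and 14.1 CPM in brm-1, 7.47, 14.7 and 18.5 CPM in ref6-1 and 16.9, 19.8 and 15.7 CPM in WT. Here ref6-1 replicate 1 fell among the combined-mutant libraries.

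**Figure D2:**
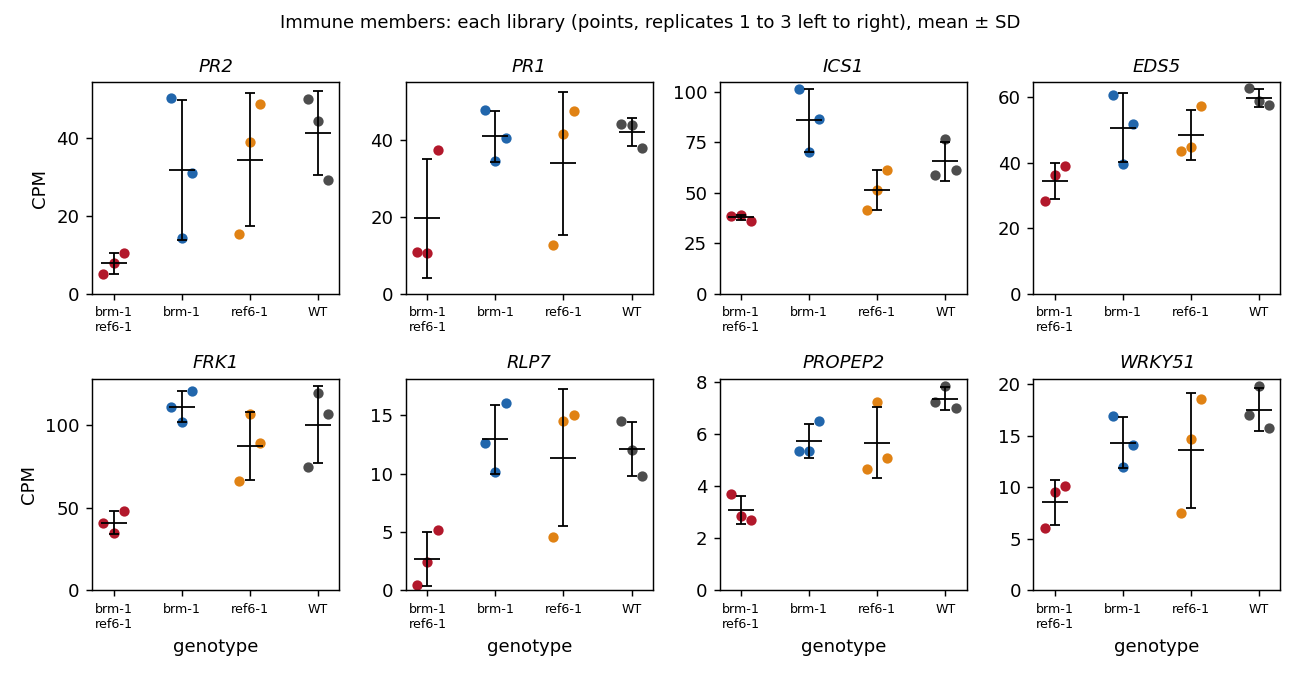
CPM of 8 immunity genes in each library (points), with mean and SD over 3 libraries, by genotype. In every panel the 3 brm-1 ref6-1 libraries lie below the 3 WT libraries, as the rule requires, and for PR1 the third brm-1 ref6-1 library stands at 37.5 CPM beside 10.8 and 10.6 CPM.

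FRK1 (AT2G19190, chromosome 2, 8326049 to 8329944), a receptor-like kinase gene induced by the flagellin peptide flg22, was the most abundant of the 74 genes in WT by CPM. It had 40.5, 34.7 and 48.0 CPM in brm-1 ref6-1, 111, 102 and 121 CPM in brm-1, 66.0, 107 and 89.4 CPM in ref6-1 and 74.5, 119 and 107 CPM in WT. The combined-mutant libraries lay below all 9 others, at a mean of 40.9% of WT, against 111% in brm-1 and 87.1% in ref6-1. The locus overlaps another gene on the opposite strand, and the strand setting of the counting is not given in the sources used here.

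PROPEP2 (AT5G64890), the precursor of a peptide that plant cells release and sense as a danger signal, had 3.69, 2.87 and 2.71 CPM in brm-1 ref6-1, 5.35, 5.38 and 6.5 CPM in brm-1, 4.68, 7.25 and 5.11 CPM in ref6-1 and 7.25, 7.86 and 7.01 CPM in WT. All combined-mutant libraries lay below all others. RLP7 (AT1G47890), a receptor-like protein with an outer domain and no kinase, had 0.485, 2.47 and 5.14 CPM in brm-1 ref6-1, 12.7, 10.1 and 16.0 CPM in brm-1, 4.59, 14.5 and 15 CPM in ref6-1 and 14.5, 12 and 9.80 CPM in WT. Its mean in the combined mutant was 22.3% of WT, or 12.2% without replicate 3, and ref6-1 replicate 1 lay under that replicate. RLP41 (AT3G25010), of the same family, had 13.7, 14.5 and 14.1 CPM in brm-1 ref6-1, 30.8, 13.1 and 40.4 CPM in brm-1, 19.0, 24.7 and 37.5 CPM in ref6-1 and 30.9, 31.4 and 21.0 CPM in WT, so that brm-1 replicate 2 stood lowest of all 12 libraries.

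Promoters of FRK1, PROPEP2 and the resistance gene AT4G14370 are printed because they hold 2 copies each of the W-box core bound by WRKY transcription factors, and that of PR2 because it holds none in the same window although its gene was lowered too. Each is the 250 bases before the annotated start, read from the RefSeq TAIR10.1 genome, 5′ to 3′ on the strand of the gene. Capitals mark TTGACC or TTGACT, or their reverse complements. The windows are chr2:8329945-8330194 (minus strand) for FRK1, chr5:25934318-25934567 (plus) for PROPEP2, chr4:8283536-8283785 (minus) for AT4G14370 and chr3:21189968-21190217 (minus) for PR2.
FRK1: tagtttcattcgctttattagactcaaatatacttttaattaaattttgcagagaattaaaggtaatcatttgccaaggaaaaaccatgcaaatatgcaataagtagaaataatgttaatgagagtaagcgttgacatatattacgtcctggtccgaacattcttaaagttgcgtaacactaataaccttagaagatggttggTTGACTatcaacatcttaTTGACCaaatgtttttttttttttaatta
PROPEP2: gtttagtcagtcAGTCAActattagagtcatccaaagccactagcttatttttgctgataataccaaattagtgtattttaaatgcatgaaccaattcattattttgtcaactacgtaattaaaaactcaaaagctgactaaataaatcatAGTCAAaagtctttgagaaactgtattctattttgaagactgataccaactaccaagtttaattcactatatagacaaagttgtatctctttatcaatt
AT4G14370: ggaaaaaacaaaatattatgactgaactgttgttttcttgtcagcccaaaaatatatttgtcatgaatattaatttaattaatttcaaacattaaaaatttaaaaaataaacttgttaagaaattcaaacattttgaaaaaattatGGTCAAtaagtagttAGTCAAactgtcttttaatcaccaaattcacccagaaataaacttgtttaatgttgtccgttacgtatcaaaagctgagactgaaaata
PR2: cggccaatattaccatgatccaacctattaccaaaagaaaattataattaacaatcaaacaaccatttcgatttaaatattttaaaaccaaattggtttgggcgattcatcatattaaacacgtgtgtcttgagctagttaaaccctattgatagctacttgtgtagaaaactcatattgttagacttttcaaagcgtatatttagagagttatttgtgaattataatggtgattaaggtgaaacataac

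In FRK1 the matches begin 47 and 29 bases before the start, in PROPEP2 238 and 99 bases and in AT4G14370 104 and 89 bases before it. Over the 73 annotated genes, 48 promoters had no match, 19 had 1 and 6 had 2. At least 1 match stood in 25 of 73 promoters, or 34.2%, and in 28.6% of the promoters of 20245 annotated loci with a WT mean of at least 3 CPM. The motif to which the REF6 zinc fingers bind, searched as CTCTGTTT, CTCTGTTC, CTCTGCTT or CTCTGCTC on both strands, was found in 2 of 73 promoters (2.74%) and in 5.18% of those loci. A match is a stretch of letters and not a measured binding site, and a window without one says nothing of bases outside it.

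Kinases and their relatives made up 11 of the 74 genes by the text of their annotation (14.9%), against 5.70% of the 20328 loci. The text match is broad: it counts AT4G24450, annotated as the glucan dikinase PWD, the cyclin-dependent kinase inhibitor AT1G10690 and the phytochrome kinase substrate-like AT1G18810. CRK41 (AT4G00970), a cysteine-rich receptor-like kinase, had 22.1, 17.6 and 26.3 CPM in brm-1 ref6-1, 40.4, 47.5 and 49.4 CPM in brm-1, 27.8, 33.4 and 38.2 CPM in ref6-1 and 31.4, 53.7 and 41.6 CPM in WT. The combined-mutant libraries lay below all others, and brm-1 at 108% of WT was above it. The lectin-type kinase AT1G67520 had 9.89, 12.5 and 12.9 CPM in brm-1 ref6-1, 31.5, 28.4 and 30.8 CPM in brm-1, 12.2, 25.7 and 23.2 CPM in ref6-1 and 24, 28.5 and 26.3 CPM in WT, with ref6-1 replicate 1 inside the combined-mutant range. The malectin-type kinase AT5G39000 stood at 43.2% of WT in brm-1 ref6-1, 88.6% in brm-1 and 103% in ref6-1, on a WT mean under 5 CPM.

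Intracellular receptors of the TIR type supplied 3 genes. AT4G11170 had 9.70, 14.8 and 18.3 CPM in brm-1 ref6-1, 25.9, 26.2 and 33.3 CPM in brm-1, 14.4, 37.0 and 43.7 CPM in ref6-1 and 20.7, 39.0 and 26.4 CPM in WT. AT4G14370 had 17.9, 25.2 and 30.7 CPM in brm-1 ref6-1, 32.5, 28.7 and 48.7 CPM in brm-1, 22.8, 35.5 and 48.6 CPM in ref6-1 and 38.9, 50.8 and 41.3 CPM in WT. In both genes ref6-1 replicate 1 lay inside the combined-mutant range, as did brm-1 replicate 2 for AT4G14370, and the spread within ref6-1 was wide. AT1G72950, which has the TIR and nucleotide-binding parts by its annotation, stood at 56.0% of WT in brm-1 ref6-1, 87.7% in brm-1 and 76.0% in ref6-1.

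The chitinase gene EP3 (AT3G54420), whose class of enzymes cleaves the chitin of fungal walls, had 11.5, 12.5 and 12.8 CPM in brm-1 ref6-1, 23.9, 22.0 and 23.7 CPM in brm-1, 19.3, 21.5 and 21.2 CPM in ref6-1 and 24.5, 25.9 and 25.5 CPM in WT. The genotypes brm-1 ref6-1 and WT were separated by more than 10 CPM, with both single mutants between them. The EP3 locus overlaps other annotated loci on the opposite strand. ChiC (AT4G19810), another chitinase, had 35.7, 50.3 and 62.3 CPM in brm-1 ref6-1, 77.6, 74.8 and 84.5 CPM in brm-1, 63.1, 67.8 and 81.0 CPM in ref6-1 and 81.6, 88.9 and 85.7 CPM in WT. EXO70B2 (AT1G07000), a subunit of the exocyst that tethers secretory vesicles and acts in immunity, had 40.2, 40.9 and 46.0 CPM in brm-1 ref6-1, 57.7, 51.4 and 64.2 CPM in brm-1, 48.1, 59.9 and 69.6 CPM in ref6-1 and 66.9, 86.3 and 75.1 CPM in WT. The groups brm-1 ref6-1 and ref6-1 were separated by only about 2 CPM in EXO70B2.

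GBSS1 (AT1G32900), which makes amylose, had 36.9, 39.6 and 46.6 CPM in brm-1 ref6-1, 76.9, 58.0 and 53.6 CPM in brm-1, 44.0, 51.8 and 70.4 CPM in ref6-1 and 63.9, 88.4 and 65.0 CPM in WT. AT4G24450, annotated as PWD, a dikinase that adds phosphate to glucan chains, had 46.0, 57.9 and 56.9 CPM in brm-1 ref6-1, 89.4, 77.6 and 72.8 CPM in brm-1, 97.4, 96.5 and 102 CPM in ref6-1 and 83.7, 115 and 88.4 CPM in WT. For PWD the combined-mutant libraries lay below all others and ref6-1 stood at 103% of WT, while for GBSS1 ref6-1 replicate 1 overlapped the combined mutant.

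BGLU28 (AT2G44460), a glucosidase gene, had 3.39, 8.30 and 8.88 CPM in brm-1 ref6-1, 67.2, 24.8 and 18.4 CPM in brm-1, 19.99, 10.8 and 29.9 CPM in ref6-1 and 22.5, 37.7 and 18.1 CPM in WT. DFR (AT5G42800), the reductase of anthocyanin synthesis, had 2.52, 7.41 and 8.97 CPM in brm-1 ref6-1, 21.9, 14.2 and 16.5 CPM in brm-1, 21.4, 14.5 and 36.8 CPM in ref6-1 and 16.8, 19.7 and 10.4 CPM in WT. In both genes the combined mutant lay below all other libraries, and 1 single-mutant library stood far above its group. DFR had the highest ref6-1 mean of the 74 genes relative to WT (155%). Transporter genes were BOR5 (53.6% of WT in brm-1 ref6-1, 84.3% in brm-1, 89.9% in ref6-1), of the borate transporter family, ABCG23 (57.3, 80.1 and 87.8% in the same order) and AT5G14890 (55.3, 80.1 and 89.0%), and ABCC7 stood at 59.8, 78.9 and 86.6%.

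WOX1 (AT3G18010), a homeobox gene of leaf blade outgrowth, had 6.30, 3.56 and 4.67 CPM in brm-1 ref6-1, 10.8, 8.65 and 7.08 CPM in brm-1, 7.83, 6.97 and 7.20 CPM in ref6-1 and 9.53, 8.76 and 10.4 CPM in WT. LBD1 (AT1G07900), of the LOB-domain family, had 0.873, 1.68 and 2.15 CPM in brm-1 ref6-1, 3.40, 3.37 and 3.49 CPM in brm-1, 2.25, 3.34 and 4.10 CPM in ref6-1 and 3.37, 4.52 and 2.61 CPM in WT. Combined-mutant libraries of both genes lay below all others. XTR6 (AT4G25810), a xyloglucan-modifying enzyme of the cell wall, had 54.4% of the WT level in brm-1 ref6-1, 92.2% in brm-1 and 78.8% in ref6-1. MRU1 (AT5G35490), CYP76C6 (AT1G33720) and PCS1 (AT5G02190), an aspartic protease gene, stood at 39.3, 46.2 and 55.9% of WT in brm-1 ref6-1.

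Scaled by transcript length, the WT levels of the named genes were highest for PR1 (46.5 CPM per kb), ChiC (43.3), AT2G26440 (39.2) and FRK1 (37.2), and low for RLP7 (3.87) and AT5G39000 (1.36). By the lists and annotation classes used, 47 of the 74 genes fell in at least 1 and 27 in none. The 27 include 5 annotated only as uncharacterized proteins, among them AT5G06980, AT1G65481 and AT1G65500. AT1G65481 and AT1G65500 lie near each other on chromosome 1, with 4 loci between them. Chromosomes 1 to 5 held 24, 9, 11, 14 and 16 of the 74 loci, or 0.446, 0.290, 0.275, 0.448 and 0.339% of their loci with a WT mean of at least 3 CPM. The count for chromosome 4 includes both TPPF and AT4G12432, which had the same counts. Another annotated locus overlapped 15 of the genes, 12 of them on the opposite strand. The 12 include FRK1, EDS5, EP3, RLP41 and AT2G24680, whose counts could hold reads of the other strand.

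How each mutation alone left these genes varied. Both single-mutant means were under WT for 44 genes, 20 of which were under 0.85 of WT in both. For 18 genes brm-1 was at or above WT and ref6-1 under it, for 8 genes ref6-1 was at or above WT and brm-1 under it, and for 4 genes (DFR, AT1G65481, AT2G24680 and AT4G10720) both were at or above WT. The 11 genes at 0.9 of WT or more in both single mutants include RLP7, RLP41, LBD1, DFR and AT4G11170. AT2G24680, a B3-type transcription factor gene and another of the 11, had 3.39, 1.98 and 2.62 CPM in brm-1 ref6-1, 5.52, 5.47 and 4.95 CPM in brm-1, 7.20, 4.92 and 6.02 CPM in ref6-1 and 5.40, 5.69 and 4.41 CPM in WT. Its combined-mutant libraries lay below all others, and both single mutants overlapped WT.

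If each mutation multiplied the level of a gene by its own ratio to WT, the product of both ratios would give the combined level. That product was 57.1 to 174% of WT (median 76.1%), and the measured level in brm-1 ref6-1 was below it for 74 of 74 genes, at 0.222 to 0.960 of the product with a median of 0.70. The rule nearly fixes this, because a gene at 0.75 in both single mutants and 0.6 in the combined mutant is already near the product. EXO70B2, with 55.7% measured and single-mutant levels of 75.9 and 77.8%, stood close to its product, and RLP7, with 22.3% measured, stood farthest below.

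**Figure D3:**
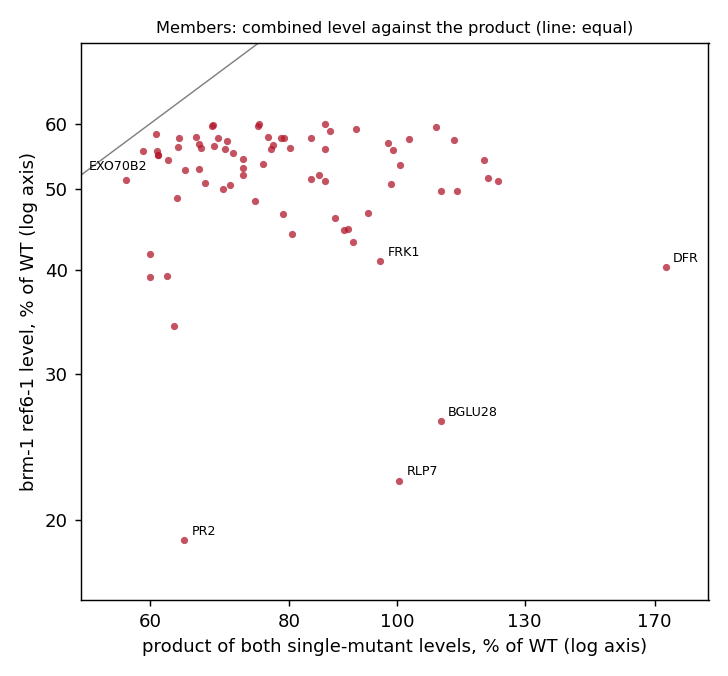
Level in brm-1 ref6-1 (vertical axis) against the product of the brm-1 and ref6-1 levels (horizontal axis), each in percent of WT on log axes, 1 point per locus; the line marks equal values. All 74 points lie under the line, at 0.222 to 0.960 of the product, which the rule nearly fixes.

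Against the single mutants themselves the separation was weaker than against WT. For 44 of the 74 genes the 3 brm-1 ref6-1 libraries lay below all 6 single-mutant libraries, and for the other 30 at least 1 single-mutant library was not above the highest combined-mutant library. That library was ref6-1 replicate 1 for 16 genes and brm-1 replicate 2 for 12, and 1 or both of these accounted for 25 of the 30. Among the 20328 loci, 21.6% had all brm-1 ref6-1 libraries below all WT libraries, a condition that the rule imposes on the 74. The share of all loci below all 6 single-mutant libraries was not worked out. The bounds of the rule on the means also favour such a separation, so the 44 describe the choice.

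In the fit of all 22076 testable genes with edgeR (adjusted p under 0.05), 64 of the 74 genes were called lower in brm-1 ref6-1 than in WT, where 17.3% of all genes tested were. Nothing can be read from this share, since the rule used the same contrast. The 10 not called include PR1, BGLU28, DFR, CYP76C6, RLP41, AT4G11170 and AT4G14370. Against brm-1, 34 were called lower in brm-1 ref6-1 (3.27% of all genes), and against ref6-1, 29 were (6.56%). In brm-1, 4 of the 74 were called lower than WT (10.1% of all genes) and 1, AT3G55690, higher (8.88%), and in ref6-1, 4 were called lower (5.63%). These cover 6 genes with a lower call in a single mutant, AT1G66540, AT2G26440, AT3G51760, AT5G06980, EP3 and EP1, so for them the fall was not limited to the combined mutant. The other 68 had no such call, which does not show that their single-mutant levels equalled WT. The interaction term, which asks whether the log2 effect of both mutations differs from the sum of the single effects, was called lower for 2 of the 74, EP3 and AT2G40570 (0.0589% of all genes). None of the 74 was called higher than WT in brm-1 ref6-1 (14% of all genes tested) or ref6-1 (2.33%), higher in brm-1 ref6-1 than in brm-1 (1.12%) or ref6-1 (5.39%), or higher for the interaction (0.186%).

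The choice was repeated on 2 of the 3 replicate numbers and the remaining number was then read. With replicate 1 left out, 98 loci met the rule, and their median was 54.3% of WT in the unused brm-1 ref6-1 library, close to the 54.5% in the libraries that chose them. With replicate 2 left out, 99 loci had 53.1% in the unused library and 53.9% in the choosing ones. With replicate 3 left out, 103 loci had 71.0% in the unused library and 52.8% in the choosing ones. The unused brm-1 ref6-1 library was below its WT counterpart for 89 of 98, 97 of 99 and 89 of 103 loci, against 46.3, 44.4 and 45.5% of all loci with a WT mean of at least 3 CPM in the choosing libraries. It met the bound of 0.6 for 57, 66 and 26 loci, against 9.47, 6.78 and 5.19% of those loci.

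The bound on the single mutants was also missed by part of the loci in the unused libraries. The median of the chosen loci was 98.9, 73.3 and 86.9% of WT in the unused brm-1 libraries 1, 2 and 3, and 69.4, 78.7 and 92.0% in the unused ref6-1 libraries. A level of at least 0.75 of WT was kept in the unused brm-1 library by 87 of 98, 47 of 99 and 72 of 103 loci, and in the unused ref6-1 library by 41 of 98, 58 of 99 and 82 of 103. The share of all loci at this bound was not worked out. Each such level is a ratio of 1 library to 1 library, which varies more than a ratio of means. Of the loci chosen on 2 replicates, 36, 42 and 42 were among the 74.

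**Figure D4:**
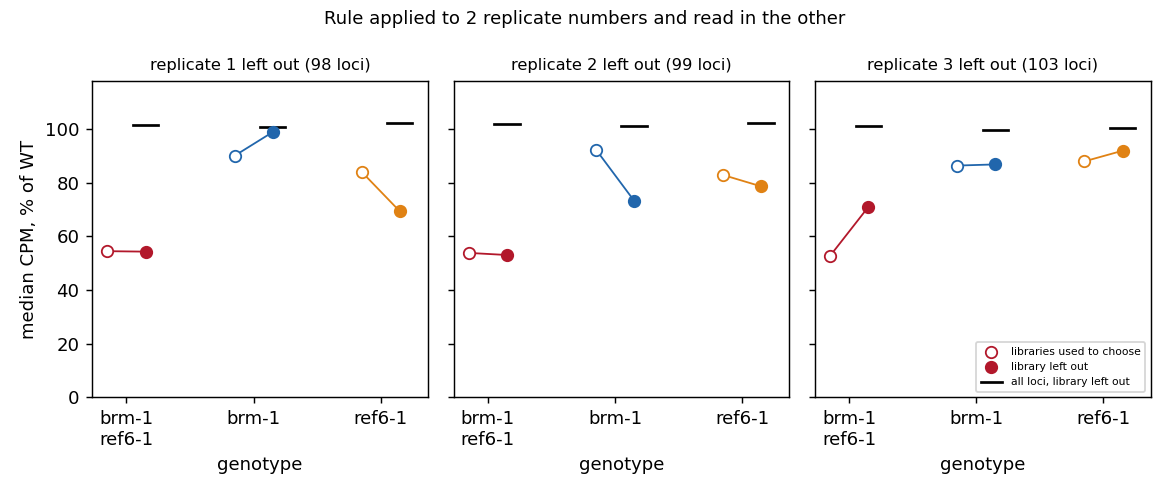
Median CPM in percent of WT for loci chosen on 2 replicate numbers, in the libraries that chose them (open circles) and in the library left out (filled circles), by genotype; black bars are medians over all loci with a WT mean of at least 3 CPM in the choosing libraries, read in the library left out. For brm-1 ref6-1 the filled circles stand at 54.3, 53.1 and 71.0%, and for ref6-1 they stand at 69.4, 78.7 and 92.0%.

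The rest of the salicylate pathway was read from a list of 25 genes, 24 of which matched the table by symbol. This list, like the others used here, was chosen with earlier results of these data known, so its counts are descriptions. Besides the 4 genes described above it holds 20 others, and 13 of these fell and 0 rose in brm-1 ref6-1 against WT, where 17.3% of all genes tested were called lower. Their median log2 difference was -0.80, against 0.00 over all genes tested. In brm-1, 1 of the 20 fell and 1 rose (median -0.11), in ref6-1, 3 fell and 0 rose (median -0.55). Without brm-1 ref6-1 replicate 3, the library with the higher BRM level, 15 of the 20 fell in the combined mutant, and over all alternatives the number was 8 (without brm-1 ref6-1 replicate 1) to 17 (without ref6-1 replicate 1). In ref6-1 it was 1 (without WT replicate 1) to 6 (without ref6-1 replicate 3), and in brm-1 it was 0 (without WT replicate 1) to 4 (without ref6-1 replicate 1). These 20 were left out of the 74 by the rule, each for missing at least 1 of its conditions.

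Upstream of ICS1, the transcription factor gene SARD1, which activates ICS1, had 11, 13.1 and 21.1 CPM in brm-1 ref6-1, 35.1, 22.6 and 33.7 CPM in brm-1, 18.4, 34.7 and 51.8 CPM in ref6-1 and 46.6, 76.2 and 53.0 CPM in WT. It fell by 1.97 ± 0.40 on the log2 scale in the combined mutant (SE, edgeR adjusted p = 0.00569), and all of its combined-mutant libraries lay below all WT libraries. All brm-1 libraries of SARD1 lay below all WT libraries too, and ref6-1 replicate 1 lay inside the combined-mutant range. Low SARD1 was thus not limited to the combined mutant. Its partner CBP60g fell by 0.75 ± 0.22 (edgeR adjusted p = 0.0285). The call was lost when WT replicate 2 (0.0729, log2 -0.49), brm-1 ref6-1 replicate 1 (0.113) or brm-1 ref6-1 replicate 2 (0.0811) was left out, within a range of 0.00799 to 0.113.

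Downstream of ICS1, PBS3, which joins isochorismate to glutamate, had 9.89, 11.8 and 19.3 CPM in brm-1 ref6-1, 69.6, 41.2 and 57.5 CPM in brm-1, 7.38, 17.8 and 29.4 CPM in ref6-1 and 46.7, 42.9 and 37.1 CPM in WT. The combined-mutant and ref6-1 libraries overlapped and the brm-1 libraries were as high as WT or higher. In the combined mutant PBS3 fell by 1.65 ± 0.42 (SE, edgeR adjusted p = 0.0164). Leaving out WT replicate 1 (0.0533), brm-1 ref6-1 replicate 1 (0.0699) or brm-1 ref6-1 replicate 2 (0.0554) removed this call, within a range of 0.00316 to 0.0699. DMR6, which inactivates salicylate by hydroxylation, fell by 1.08 ± 0.16 in brm-1 ref6-1 (edgeR adjusted p = 0.000826), and it also fell in brm-1 (log2 -0.62, 0.0179) and in ref6-1 (log2 -0.79, 0.0131). With WT replicate 1 left out, the adjusted p of DMR6 was 0.0656 in brm-1 and 0.0572 in ref6-1, and with WT replicate 2 left out it was 0.0542 in brm-1, within ranges of 0.000499 to 0.0656 in brm-1 and 8.61e-06 to 0.0572 in ref6-1.

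ALD1, the first enzyme of the pipecolate branch of systemic immunity, had 2.04, 0.198 and 1.96 CPM in brm-1 ref6-1, 16.1, 4.74 and 6.98 CPM in brm-1, 1.98, 1.49 and 7.29 CPM in ref6-1 and 17.9, 17.7 and 11.1 CPM in WT. It fell by 3.48 ± 0.74 in brm-1 ref6-1 (SE, edgeR adjusted p = 0.00597), and ref6-1 replicates 1 and 2 were as low as the combined mutant. WRKY54 had 12, 16.2 and 16.1 CPM in brm-1 ref6-1, 50.3, 32.1 and 35.3 CPM in brm-1, 20.4, 36.2 and 37.9 CPM in ref6-1 and 44.6, 53.3 and 40.8 CPM in WT. It fell by 1.67 ± 0.26 (edgeR adjusted p = 0.00127), with all combined-mutant libraries below all others. Among the other WRKY genes, WRKY70 fell by 0.56 ± 0.09 (edgeR adjusted p = 0.00122), WRKY46 by 1.33 ± 0.37 (0.0208) and WRKY38 by 2.46 ± 0.70 (0.0236).

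The calls of WRKY46 and WRKY38 stood close to the threshold and were lost when any 1 of several libraries was left out. For WRKY46 the edgeR adjusted p was 0.0703 with WT replicate 2 left out and 0.0853 with brm-1 ref6-1 replicate 1 left out, within a range of 0.00345 to 0.0853. For WRKY38 it was 0.054 and 0.0568 with WT replicate 1 or 2 left out and 0.0932 and 0.072 with brm-1 ref6-1 replicate 1 or 2 left out, within a range of 0.00513 to 0.0932, and its log2 difference was -3.90 without brm-1 ref6-1 replicate 3.

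NIMIN1, which encodes a partner of the salicylate receptor NPR1, fell by 1.78 ± 0.45 in brm-1 ref6-1 (edgeR adjusted p = 0.0107), or by a log2 difference of -2.54 without brm-1 ref6-1 replicate 1, and NPR1 itself by 0.21 ± 0.06 (0.0221). The call of NPR1 did not survive leaving out WT replicate 2 (0.0819) or brm-1 ref6-1 replicate 1 (0.0928), within a range of 0.00277 to 0.0928. PAD4, which relays signals of resistance proteins, fell by 0.64 ± 0.11 (0.00178) and the output gene PR5 by 0.41 ± 0.09 (0.00379). Not passing in the combined mutant were EDS1 (log2 -0.26), SAG101 (-0.18), NPR3 (-0.50), WRKY18 (-0.07), WRKY53 (-0.33), WRKY62 (-0.94) and FMO1 (-0.85). The jasmonate response, a hormone pathway that often opposes salicylate, held none of the 74 genes, and 2 of its 23 list genes fell and 0 rose.

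**Figure D5:**
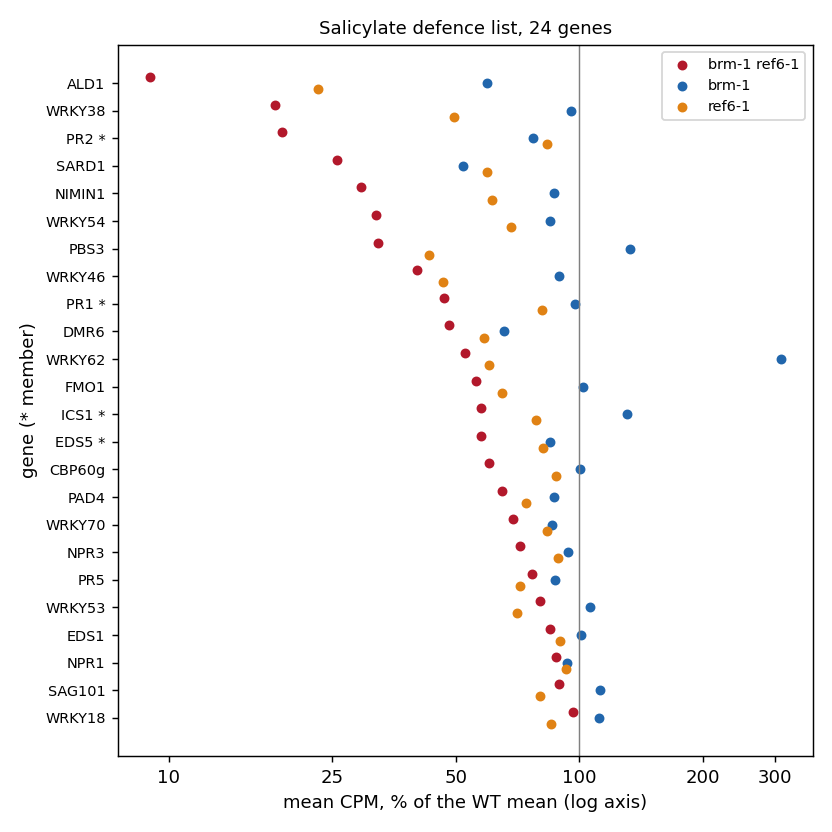
Mean CPM in percent of the WT mean (log axis) for the 24 matched genes of the salicylate list in brm-1 ref6-1, brm-1 and ref6-1, ordered by the brm-1 ref6-1 level; stars mark the 4 genes of the 74. All 24 genes stand below 100% in brm-1 ref6-1, from ALD1 to WRKY18, and WRKY62 has its highest level in brm-1.

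The immune receptor classes from which the 74 genes draw also held genes called lower outside them. Over all genes tested, 17.3% were called lower and 14% higher in brm-1 ref6-1, 10.1% lower in brm-1 and 5.63% lower in ref6-1. Of 171 other NBS-LRR genes tested, 81 fell and 10 rose in brm-1 ref6-1 against WT, with a median log2 difference of -0.29, and 51 fell in brm-1 and 32 in ref6-1. Of 47 other receptor-like protein genes, 17 fell and 2 rose in the combined mutant, and 6 fell in each single mutant. Of 37 other cysteine-rich receptor-like kinase genes, 24 fell and 2 rose in the combined mutant (median -0.68), against 5 that fell in brm-1 and 14 that fell in ref6-1. Many of these genes are similar in sequence, and the counting could have split reads among them. In brm-1, the counts of receptor-like proteins and cysteine-rich receptor-like kinases that fell were little above the share of all genes tested.

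Markers of cell types moved in part with these results. HT1 (AT1G62400), a kinase of guard cells that controls the response of stomata to CO2, is 1 of the 74 and had 4.95, 5.44 and 8.22 CPM in brm-1 ref6-1, 10.6, 11.3 and 11.9 CPM in brm-1, 9.37, 9.48 and 7.93 CPM in ref6-1 and 12.2, 9.21 and 9.98 CPM in WT. All 4 guard-cell markers were called lower in brm-1 ref6-1, but the rule chose HT1 for its fall, so HT1 adds nothing to this count. Besides HT1, the channel gene KAT1 fell by 1.46 ± 0.13 (edgeR adjusted p = 2.1e-05), MYB60 by 0.33 ± 0.06 (0.00111) and FAMA by 0.21 ± 0.04 (0.00238). The summed level of the 4 markers was 103 to 117 CPM in brm-1 ref6-1, 150 to 171 CPM in brm-1, 141 to 149 CPM in ref6-1 and 162 to 175 CPM in WT. KAT1 weighed most in the difference between brm-1 ref6-1 and WT, with means of 23.8 and 64.7 CPM. It was already low in ref6-1 alone, at 34.3 to 42.4 CPM against 57.6 to 69.7 CPM in WT. In brm-1 it had 46.3 to 63.2 CPM. The means in brm-1 ref6-1 and WT were 51.1 and 58.4 CPM for FAMA and 29.1 and 36.1 CPM for MYB60. In ref6-1 their means were above WT, at 60.2 CPM for FAMA and 38.2 CPM for MYB60. In brm-1 they were 63.3 and 32.8 CPM.

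The 7 leaf mesophyll markers, with 0 lower and 3 higher calls, summed to 759 to 832 CPM in brm-1 ref6-1 and 747 to 786 CPM in WT, and the 10 root markers, with 1 lower and 1 higher, to 310 to 343 CPM in brm-1 ref6-1 and 328 to 375 CPM in WT. The 4 senescence markers, 2 of them lower, summed to 76.6 to 124 CPM in brm-1 ref6-1, 124 to 153 CPM in brm-1, 96.2 to 134 CPM in ref6-1 and 165 to 178 CPM in WT. The 5 flower markers, 3 of them higher, summed to 76.9 to 88.7 CPM in brm-1 ref6-1, 57.3 to 65.3 CPM in brm-1 and 36.4 to 39.5 CPM in ref6-1, against 13.9 to 18.4 CPM in WT. SEP3 weighed most in this difference, with means of 63.0 CPM in brm-1 ref6-1 and 7.88 CPM in WT. AP1 and PI were also called higher. AG was not called, with 2.05 CPM in brm-1 ref6-1 and 2.54 CPM in WT, and AP3 was too low to be tested. The 4 shoot meristem markers, of which KNAT1 was called higher (log2 0.63 ± 0.04, edgeR adjusted p = 1.8e-06), summed to 80.9 to 83.5 CPM in brm-1 ref6-1, 65.1 to 72.3 CPM in brm-1, 58.8 to 60.3 CPM in ref6-1 and 52.8 to 58.5 CPM in WT. Of 7 genes matched as seed markers, 1 of which (AT1G69180, CRC) is a carpel gene, CRA1, SESA1, OLEO1 and OLEO2 were called higher in brm-1 ref6-1 (edgeR adjusted p 0.000684, 0.00773, 0.00163 and 0.00156). The 7 summed to 23.8 to 58.0 CPM in brm-1 ref6-1, 2.52 to 22.2 CPM in brm-1, 1.00 to 1.26 CPM in ref6-1 and 0.899 to 1.94 CPM in WT. CRA1, a gene of a seed storage protein, had 14.9 to 31.4 CPM in brm-1 ref6-1, 1.75 to 16.0 CPM in brm-1, 0 to 0.186 CPM in ref6-1 and 0 to 0.181 CPM in WT. The 3 phloem markers, 1 of them lower, summed to 203 to 220.2 CPM in brm-1 ref6-1 and 209.7 to 221 CPM in WT, and the 4 xylem markers, 1 of them higher, to 151 to 155 CPM in brm-1 ref6-1 and 155 to 164 CPM in WT. The part of any of these cell types in the level of the 74 genes was not tested.

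Genes on either side of each bound differed little. AT1G77570 and AT5G11930 entered with WT means of 3.10 and 3.33 CPM, whereas SAUR20 and AT1G55230 stayed out with 2.95 and 2.88 CPM. In brm-1, AT5G51470 entered at 75.2% of WT and AT3G59695 stayed out at 74.8%. In ref6-1, AT2G39530 entered at 75.3% and PAD3, the last enzyme of camalexin synthesis, stayed out at 74.8%. In brm-1 ref6-1, AT1G18810 entered at 59.9% and MPK12, a MAP kinase of guard cells, stayed out at 60.1%. With the other conditions met, 29 loci were left out by the WT bound, 331 by the brm-1 bound, 339 by the ref6-1 bound and 2406 by the brm-1 ref6-1 bound, and 86 loci would have met the 4 mean conditions without that on overlap with WT. In all, 1372 loci had a combined level of 0.6 of WT or less, and 1286 of them were under 0.75 in at least 1 single mutant.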

How the data were processed

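RNA of 14-day-old seedlings was sequenced as paired reads of 100 bases in 12 libraries, 3 per genotype. The deposited values are read counts per locus, which the authors made from TopHat2 alignments (build TAIR10), per the submitters' processing notes. Not given in the sources used here are the aligner version, the counting tool and its strand setting. Counts were divided by library totals (10119148 to 11860892) to give CPM, and the selection rule was applied to them.

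The members and all gene lists were chosen with earlier results of these data known. A single fit of all 12 libraries was made in R 4.3.3 with edgeR 4.0.16 (TMM, filterByExpr, robust quasi-likelihood F test, two-sided, 1 mean per genotype), with Benjamini-Hochberg adjustment over 22076 genes. The calculation was tested on simulated counts with the same fixed spread for every gene and changes in brm-1 ref6-1 only. That checks the computation and not the calls in these libraries, whose spread differs between genes and genotypes. Standard errors of log2 differences come from the F statistic. P-values measure only the spread between these libraries. Ranges of adjusted p beside a lost call run over all 18 alternatives.

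Genes named are BRM, REF6, the 12 members with a symbol and the lowest combined level, the 6 with the highest WT CPM, up to 3 per list or class, the 4 with the highest smaller single-mutant level, those nearest each bound and neighbours. Other list genes and markers, EDS5, EP1, HT1, ABCC7, AT5G06980 and AT3G55690 were named after their values were seen. Gene positions and promoters come from the RefSeq TAIR10.1 genome, matched by locus identifier, and the deposited table holds no coordinates. The promoter of 1 member is not reported here. Alternatives were DESeq2 1.42.0, its size factors, limma-voom (limma 3.58.1), other filters, a replicate block, other bounds of the rule and each library left out.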

Additional observations from a re-analysis of the deposited data

Results flagged for a closer look

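The interaction term differed from 0 for 2 of the 74 genes, a difference between the effect of ref6-1 in brm-1 plants and its effect in plants with BRM. It was -0.61 (SE 0.11) on the log2 scale for EP3 and -0.85 (SE 0.10) for AT2G40570, whose product is annotated as an initiator tRNA phosphoribosyl transferase. AT2G40570 had 17.7, 15.7 and 18.4 CPM in brm-1 ref6-1, 26.9, 28.2 and 25.2 CPM in brm-1, 33.9, 35.4 and 33.4 CPM in ref6-1 and 29.3, 26.9 and 31.1 CPM in WT. Over the 18 alternatives the edgeR, DESeq2 or limma adjusted p of the interaction stayed under 0.05 in 18 for AT2G40570 and in 5 for EP3, where it ran from 0.0368 to 0.115. Both genes were chosen by a rule that used these means, so the values are descriptions. EP3 also overlaps annotated loci on the opposite strand, and the strand setting of the counting is not known.

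FAMA, listed as FMA (AT3G24140), a guard-cell regulator outside the 74 genes, had an interaction term of -0.34 (SE 0.06, edgeR adjusted p = 0.0366). Its libraries had 47.9 to 53.6 CPM in brm-1 ref6-1, 61.9 to 64.2 CPM in brm-1, 59.5 to 61.4 CPM in ref6-1 and 57.6 to 58.8 CPM in WT. The call was lost in 12 of 18 alternatives, DESeq2 (adjusted p = 0.103) and each library left out except brm-1 ref6-1 replicate 3, within a range of 0.0236 to 0.104.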

How the results depend on the processing

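The number of genes that met the rule was 74 as reported. It was 49 with a WT mean of at least 10 CPM, 11 with single mutants at 0.9 of WT or more, 20 and 255 with a combined bound of 0.5 and 0.7, and 44 with the combined mutant below every other library. TMM or DESeq2 scaling gave 76 genes each, 66 of them shared. Leaving out 1 library gave 59 (without ref6-1 replicate 3) to 136 (without brm-1 ref6-1 replicate 3), and 112 without ref6-1 replicate 1. The median level read in unused libraries was 53.1 to 71.0%, against 54.3% over all.

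For single genes and list counts, results under the alternatives kept direction and side of the threshold or stayed within 1.5 times in 1527 cases, passed the threshold anew in 51, lost it in 46, turned in 1 and moved in 7.

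Genes called with 1 library left out were 4692 to 7077 in brm-1 ref6-1 against WT (6897 as reported), 2705 to 4491 in brm-1 (4193), 862 to 1985 in ref6-1 (1756), 364 to 1144 in brm-1 ref6-1 against brm-1 (968), 1695 to 2632 against ref6-1 (2638) and 12 to 55 for the interaction (54, and 95 with DESeq2). Of the 74, the lower calls were 50 to 68, 1 to 6, 0 to 5, 16 to 36, 17 to 35 and 1 to 3 in the same order. DESeq2 gave 2 of the 74 in ref6-1 against WT and 4 for the interaction, and limma-voom gave 1 for the interaction. Of the 64 genes called lower in brm-1 ref6-1 against WT, 45 were called under all 18 alternatives. The log2 difference of WRKY18 was -0.07 as reported, -0.17 without WT replicate 1 and 0.015 without brm-1 ref6-1 replicate 1. The cause of these changes was not tested.

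Whether replicate numbers pair the libraries was not settled. Same-numbered libraries correlated at -0.25 to 0.40 in their deviations, over 0.1 in 7 of 18 pairs, and 6 of 12 libraries correlated best with their own number. With the replicate number as a block, 7196, 4437, 2023, 1053, 2831 and 72 genes were called in the 6 comparisons in the order above, and 66, 6, 4, 32, 35 and 2 of the 74 were called lower. Depth limits the genes under 5 CPM, which rest on few counts per library, and 3 libraries per genotype limit the rest.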

Other observations

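WRKY62, a transcription factor gene of the salicylate list, went the other way in brm-1. It had 2.72, 5.04 and 4.86 CPM in brm-1 ref6-1, 29.4, 17.9 and 26.8 CPM in brm-1, 2.52, 4.83 and 7.11 CPM in ref6-1 and 7.08, 10.6 and 6.29 CPM in WT. Its log2 difference in brm-1 against WT was 1.62 (edgeR adjusted p = 0.00461), with all brm-1 libraries above all others, and its difference in brm-1 ref6-1 did not pass.

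Lists that hold none of the 74 genes moved in both directions in brm-1 ref6-1 against WT, where 17.3% of all genes tested were called lower and 14% higher. Of 19 phosphate starvation genes tested, 13 fell and 1 rose in the combined mutant, against 2 that fell in brm-1 and 6 that fell in ref6-1. Of 19 circadian clock genes, 11 fell and 0 rose in the combined mutant, 8 fell and 1 rose in brm-1, and 7 fell in ref6-1. Of 18 genes of abscisic acid and cold, 7 fell and 3 rose in the combined mutant, and of 19 of sugar and carbon, 6 fell and 2 rose.

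More genes rose than fell in other lists. Of 21 flowering genes, 10 rose and 3 fell in the combined mutant, 9 rose and 2 fell in brm-1, and 8 rose and 0 fell in ref6-1. Of 29 genes of leaf and organ growth, 11 rose and 3 fell in the combined mutant, 8 rose and 1 fell in brm-1, and 1 rose and 1 fell in ref6-1. In the combined mutant, 7 of 17 iron genes rose and 2 fell, 7 of 26 auxin genes rose and 2 fell, and 6 of 20 ethylene genes rose and 2 fell. Calls were more evenly split for brassinosteroid (4 fell and 6 rose of 15), cytokinin (5 and 3 of 24), glucosinolates and camalexin (4 and 2 of 20), gibberellin (3 and 2 of 17) and nitrogen (2 and 4 of 14).

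The flavonoid list holds DFR of the 74. Among its 15 other genes, 7 fell and 0 rose in the combined mutant, 6 fell and 1 rose in brm-1, and 0 fell in ref6-1.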
